A study of Mus musculus with 6 samples.

Results

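Genes that encode centromere, kinetochore, cohesin and condensin proteins were examined in single mouse morulae that lack Rbpj. They were chosen by a rule on the symbol that used no measured value, although earlier results of these data were known. They comprised the Cenp genes, the Ndc80, Mis12 and Ska complexes, Casc5, Zwint and Zw10, the chromosomal passenger genes Incenp, Birc5 and Cdca8, and the subunits of cohesin, condensin and the Smc5-Smc6 complex. This rule found 52 of the 12125 genes in the table, and all 52 passed the filter on low values. Cenpj, which encodes a centriole protein, and Cenpv, which lies outside the constitutive centromere network, share little but the name with the rest and were kept apart.

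All 6 embryos were single morulae of embryonic day 2.5 on an outbred background. The mutants were 3 Rbpj-/- embryos, 2 of litter 808 and 1 of litter 810. The controls were 3 embryos of litter 808, of which 1 was a Rbpj+/- heterozygote and 2 were wildtype, and control values are given in that order below. RBPJ binds DNA and recruits the cleaved intracellular part of Notch receptors to target genes, and the comparison asked which transcripts depend on it in the morula. Each embryo was collected and sequenced whole, and the genotypes were assigned by the authors from the expression of Rbpj and Neo in these same libraries. Rbpj had values of 10.5 and 24.3 in the mutants of litter 808 and 1.32 in the mutant of litter 810, against 37.0, 111 and 96.9 in controls, which is no independent check of the labels because the genotypes were read from it. Values are normalised counts, namely CPM, counts scaled to a common library size by the trimmed mean of M-values (TMM), with 1 library per embryo.

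The libraries were not equally deep. The reads recovered from the values came to 2962425 and 4330126 in the mutants of litter 808 and 10064016 in the mutant of litter 810, against 12690030 to 14585313 in controls, so that depth moved with genotype within litter 808. A count of 3 reads corresponded to a value of 0.282 to 1.09 in mutants and 0.201 to 0.231 in controls. All 8 markers of the preimplantation embryo were in the table. They summed to 968 and 1244 in the mutants of litter 808 and 1870 in the mutant of litter 810, against 1737, 1817 and 2236 in controls. Both mutants of litter 808 were thus below every control. Single markers could go the other way, as for Nanog, with 62.4 and 31.5 in these mutants, against 26.1, 23.9 and 26.9 in controls. None of 6 cumulus markers was in the table. The 5 blood markers in the table, mostly globins, summed to 210 and 41.5 in the mutants of litter 808 and 7305 in the mutant of litter 810, against 1110, 5.39 and 5446 in controls. The 3 oviduct markers summed to 13.5 to 130 in mutants and 30.1 to 124 in controls. The 4 of 8 oocyte markers in the table summed to 53.0 and 50.9 in the mutants of litter 808 and 29.1 in the mutant of litter 810. In controls the oocyte sums were 34.0, 18.1 and 20.4, so that both mutants of litter 808 were above every control. The part of these lists in the results was not tested.

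At each centromere, nucleosomes that carry the histone variant CENP-A bind the constitutive centromere-associated network (CCAN), on which the kinetochore is built before mitosis. The outer kinetochore, the KMN network of the Knl1, Mis12 and Ndc80 complexes, holds the ends of microtubules, and the Ska complex and the fibrous corona strengthen or assist this contact. The chromosomal passenger complex releases faulty attachments. Cohesin holds sister chromatids together and shapes interphase chromatin, condensin compacts the chromosomes for division, and the Smc5-Smc6 complex acts in repair and replication. The cleaving embryo divides without growth, starting from maternal stores of many of these proteins and transcripts.

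Promoters were read from RefSeq (GRCm38.p6), from 250 bases before to 50 bases after each transcription start, and 44 of the 52 genes matched, with 47 promoters. No promoter was matched for Casc5, Incenp, Nsl1, Rad21, Ska1, Smc4, Spc24 or Stag2, so that the shares below do not cover these genes. A few are shown, for genes of 3 roles whose values are described below: Birc5 (chr11:117848987-117849286, plus strand) and Cenpm (chr15:82244287-82244586, minus strand), which rose between littermates, and Cenpe (chr3:135212313-135212612, plus strand), which stood low in the mutant of litter 810. Capitals mark CCAAT, the box bound by NF-Y, and the cell cycle genes homology region (CHR, TTTGAA or TTTAAA), on either strand.
Birc5: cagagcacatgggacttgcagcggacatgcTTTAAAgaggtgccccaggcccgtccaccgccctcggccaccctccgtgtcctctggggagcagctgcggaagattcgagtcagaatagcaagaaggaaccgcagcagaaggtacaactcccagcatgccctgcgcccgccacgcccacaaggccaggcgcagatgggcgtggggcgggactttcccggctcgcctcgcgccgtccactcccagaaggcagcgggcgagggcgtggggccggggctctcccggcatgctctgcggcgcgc
Cenpm: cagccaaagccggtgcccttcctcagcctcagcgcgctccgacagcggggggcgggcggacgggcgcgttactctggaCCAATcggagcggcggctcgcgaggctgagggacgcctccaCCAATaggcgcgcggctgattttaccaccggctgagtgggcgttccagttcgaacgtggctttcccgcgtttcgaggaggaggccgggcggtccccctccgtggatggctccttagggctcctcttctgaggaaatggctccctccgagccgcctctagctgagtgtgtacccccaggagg
Cenpe: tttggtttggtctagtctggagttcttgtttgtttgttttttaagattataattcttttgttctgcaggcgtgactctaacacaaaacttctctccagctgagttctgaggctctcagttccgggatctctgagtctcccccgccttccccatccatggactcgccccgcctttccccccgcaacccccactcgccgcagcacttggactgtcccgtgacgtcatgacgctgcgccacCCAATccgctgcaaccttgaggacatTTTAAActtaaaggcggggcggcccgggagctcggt
These windows share no common arrangement of both motifs, with 1 CHR in that of Birc5, 2 CCAAT boxes in that of Cenpm and 1 of each in that of Cenpe. Over all 47 member promoters, 57.4% held CCAAT, against 37.4% of the 32851 promoters of the same length in RefSeq and 38.3% of the 10934 promoters of genes in the table. The CHR was in 46.8% of member promoters, 27.6% of all promoters and 19.2% of those of genes in the table. The RBPJ core TGGGAA was in 19.1% of member promoters, 25.6% of all and 22.5% of those in the table. The motifs were searched on both strands, CCAAT read on the other strand (ATTGG) can share letters with TGGGAA, and a match describes the sequence only.

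With all 6 embryos and genotype as the only term, none of the 52 genes passed (limma, Benjamini-Hochberg adjusted over 12099 genes, threshold 0.05). The same test called 0% of all genes. The lowest adjusted p of a member was 0.170, for Incenp. At an unadjusted p under 0.05 there were 4 members lower (7.69%, against 11.4% of all genes) and 3 higher (5.77%, against 5.03%) by limma. By the edgeR quasi-likelihood test there were 3 lower (5.77%, against 7.43%) and 3 higher (5.77%, against 5.28%), with none past adjustment. DESeq2 called 1 member lower, Incenp (log2 fold change -1.46, SE 0.39, adjusted p = 0.0114), and 0 higher. DESeq2 called 1.83% of all genes lower and 1.11% higher. The median log2 fold change was -0.13 over the members and -0.11 over all genes tested.

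All 3 mutants were below all 3 controls in 7 members (13.5%, against 12.8% of all genes tested), namely Cenpc1, Cenpl, Casc5, Incenp, Stag2, Ncapd3 and Smc5. All 3 were above all controls in 5 members (9.62%, against 8.91% of all genes), namely Cenpk, Cenpm, Cenpt, Cenpu and Ska2. Both shares were near those of the whole table.

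**Figure D1:**
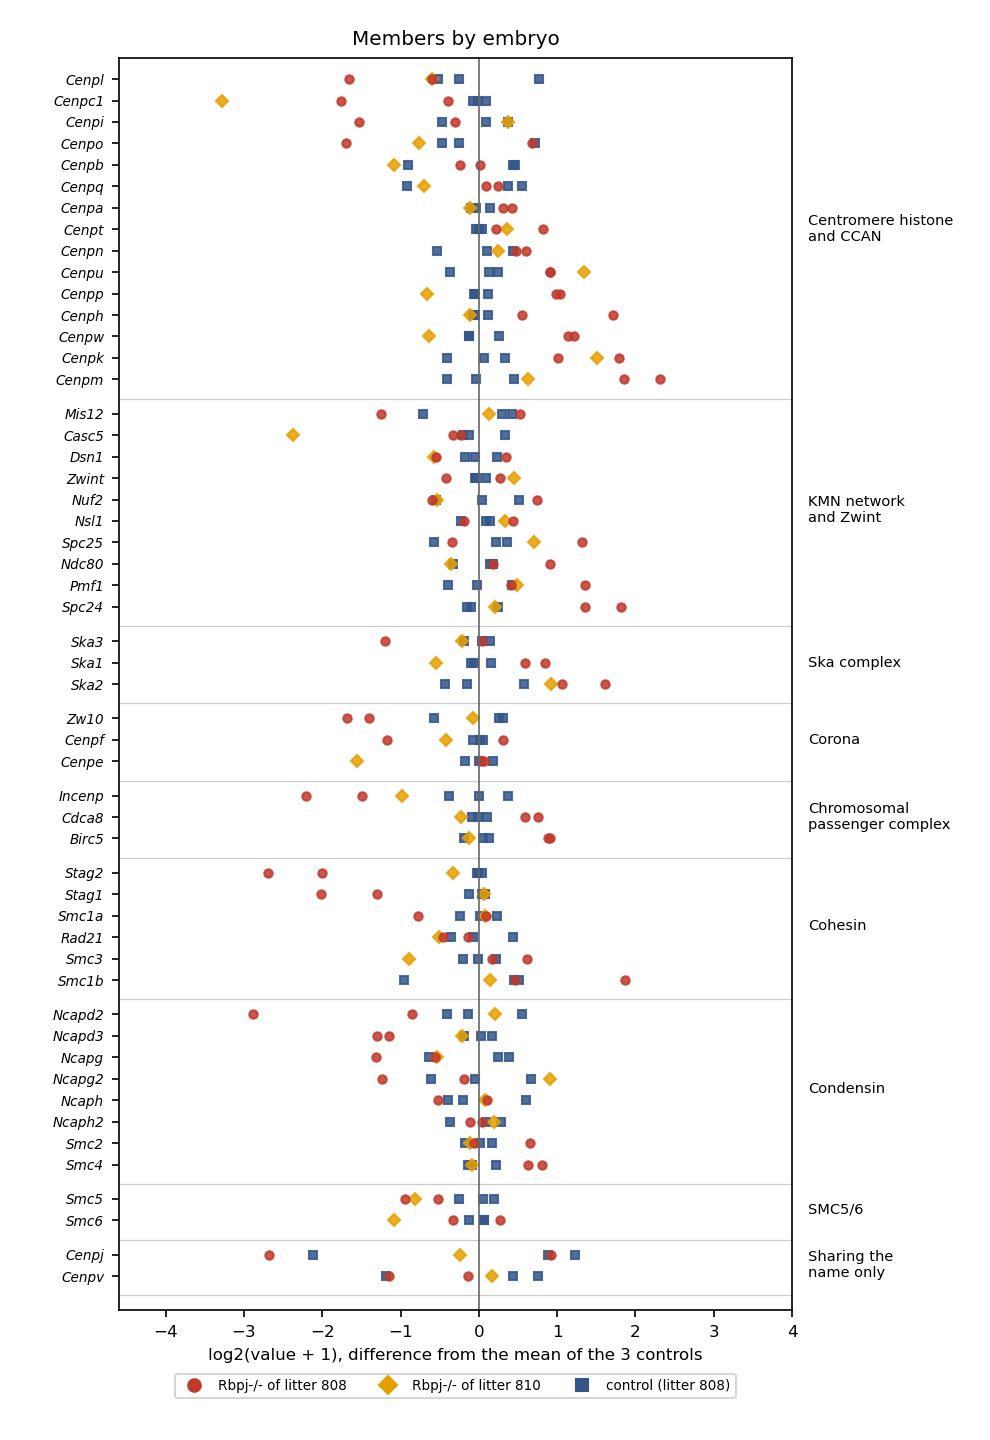
Difference of each embryo from the mean of the 3 controls, in log2(value + 1), for the 52 genes grouped by role and, within a role, ordered by the fold change between littermates. Red circles are the 2 Rbpj-/- embryos of litter 808, yellow diamonds the Rbpj-/- embryo of litter 810 and blue squares the 3 controls. The yellow diamond lies apart from both red circles in many rows, as for Cenpe, Casc5 and Stag2.

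With litter as a covariate the comparison became that of the 2 mutants and 3 controls of litter 808. Here 5 members fell (9.62%, against 11.3% of all genes), namely Stag2, Incenp, Stag1, Zw10 and Ncapd3, and 3 rose (5.77%, against 5.85% of all genes), namely Cenpm, Spc24 and Birc5. At an unadjusted p under 0.05 there were 7 lower (13.5%, against 20.1% of all genes) and 9 higher (17.3%, against 12.1%). Members lay on both sides of 0, 27 below and 25 above, with a median log2 fold change of -0.03, against -0.16 over all genes. Both mutants of litter 808 were below all controls in 10 members (19.2%, against 27% of all genes) and above all controls in 16 (30.8%, against 21.2%). A fold change of RNA in a whole embryo cannot separate fewer cells in the phase that transcribes a gene from less RNA per cell.

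**Figure D2:**
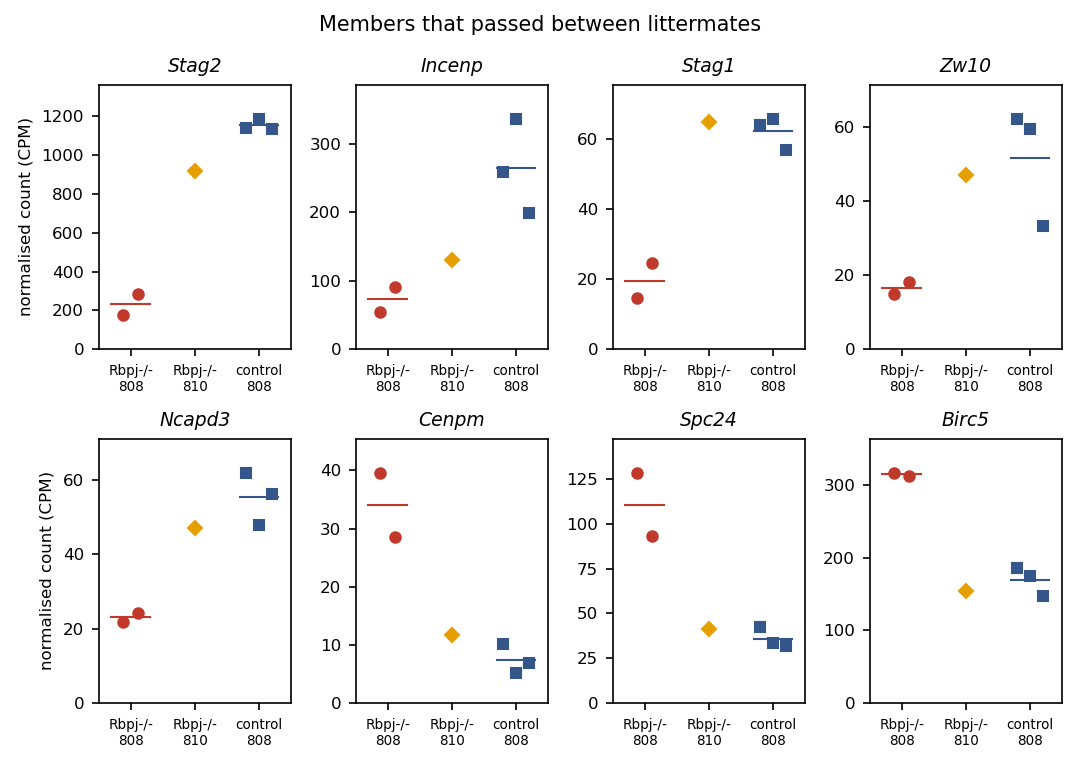
Normalised counts (CPM, linear axis from 0) of the 8 genes that passed between littermates, with points for single embryos and lines for the group means of litter 808. For Stag1, Spc24 and Birc5 the Rbpj-/- embryo of litter 810 lies within or close to the range of the controls, at 64.8, 41.5 and 155.

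Among Cenpa, Cenpb and the CCAN genes, 1 of 15 rose between littermates and none fell, against 5.85% and 11.3% of all genes. Their median log2 fold change was 0.52, with 10 of 15 above 0, against a median of -0.16 over all genes. These values over all genes apply to every role below, and no role was tested as a set. Cenpm (ENSMUSG00000068101, chr15:82233779-82244748 of GRCm38, minus strand), a small subunit of the CENP-H, CENP-I and CENP-K complex, had 39.6 and 28.5 in the mutants of litter 808 and 11.7 in the mutant of litter 810, against 10.1, 5.19 and 6.97 in controls. All mutants were above all controls, although the mutant of litter 810 only narrowly so. The log2 fold change between littermates was 2.08 (SE 0.57, adjusted p = 0.0351, and 0.00167 to 0.179 over the alternatives).

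Cenpw, whose product pairs with that of Cenpt in a histone-like fold, had 50.1 and 52.9 in the mutants of litter 808 and 13.9 in that of litter 810, against 26.6, 20.3 and 20.2 in controls (log2 fold change between littermates 1.18, SE 0.41, adjusted p = 0.0767). The littermate mutants were above, and the mutant of litter 810 below, every control. Cenpa, the centromeric histone itself, had 253 and 273 in the mutants of litter 808 and 189 in that of litter 810, against 191, 226 and 198 in controls (0.36, SE 0.21, adjusted p = 0.276). Cenpc1, which encodes the CENP-C protein that bridges CENP-A nucleosomes and the outer kinetochore, was lowest of all in the mutant of litter 810. Its values were 5.08 and 14.8 in the mutants of litter 808 and 1.13 in that of litter 810, against 19.4, 20.9 and 18.6 in controls, and it rested on 14, 60 and 12 reads in the mutants (log2 fold change between littermates -1.08, SE 0.65, adjusted p = 0.289). The groups did not overlap, but the spread among the mutants was wide.

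In the KMN network and Zwint, 1 of 10 genes rose and none fell (all genes, 5.85% and 11.3%), with a median log2 fold change of 0.09. Spc24 (ENSMUSG00000074476, chr9:21755442-21760303, minus strand), whose product anchors the Ndc80 complex to the inner kinetochore, had 128 and 92.9 in the mutants of litter 808 and 41.5 in the mutant of litter 810, against 42.5, 33.4 and 32.2 in controls. The littermate mutants were above every control and the mutant of litter 810 lay among them. The log2 fold change between littermates was 1.58 (SE 0.33, adjusted p = 0.0137, and 3.57e-05 to 0.0725 over the alternatives).

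Ndc80, the microtubule-binding subunit of the same complex, had 225 and 136 in the mutants of litter 808 and 93.2 in that of litter 810, against 95.2, 136 and 132 in controls (0.55, SE 0.30, adjusted p = 0.241), with a high value in 1 embryo only. Pmf1, a subunit of the Mis12 complex, had 86.7 and 44.5 in the mutants of litter 808 and 46.9 in that of litter 810, against 32.7, 44.7 and 25.0 in controls (0.89, SE 0.42, adjusted p = 0.177). For Ndc80 both littermate mutants were above the controls, 1 of them by under 1 unit, and the mutant of litter 810 was below them. For Pmf1 the littermate groups overlapped.

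None of the 3 Ska genes passed, with a median log2 fold change of 0.71 between littermates. Ska1, which encodes a microtubule-binding subunit, had 82.4 and 68.8 in the mutants of litter 808 and 30.8 in that of litter 810, against 42.5, 50.8 and 43.7 in controls (log2 fold change between littermates 0.71, SE 0.32, adjusted p = 0.156). Its order matched that of Cenpw, with the mutants of the 2 litters on opposite sides of the controls. Ska2, which encodes another subunit, had 21.1 and 14.0 in the mutants of litter 808 and 12.6 in that of litter 810, against 9.76, 4.31 and 5.49 in controls (1.34, SE 0.64, adjusted p = 0.180).

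The corona is the outermost layer that forms on kinetochores not yet attached. Of its 3 genes 1 fell (all genes, 11.3%), with a median log2 fold change of -0.43. Zw10 (ENSMUSG00000032264, chr9:49055613-49078775, plus strand), part of the complex that brings dynein and checkpoint proteins to the kinetochore, had 14.9 and 18.2 in the mutants of litter 808 and 47.2 in the mutant of litter 810, against 62.3, 59.7 and 33.3 in controls. The mutant of litter 810 lay within the controls and the littermate mutants below them. The log2 fold change was -1.54 (SE 0.42, adjusted p = 0.0337, and 0.00633 to 0.138 over the alternatives).

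Cenpf, a large protein of the corona and the nuclear matrix, had 113 and 39.6 in the mutants of litter 808 and 67.9 in that of litter 810, against 92.0, 94.0 and 86.4 in controls (-0.43, SE 0.41, adjusted p = 0.512), so that the littermate mutants lay on both sides of the controls. Cenpe, the kinesin that carries chromosomes to the spindle equator, had 479 and 490.5 in the mutants of litter 808, against 469, 534 and 415 in controls (0.04, SE 0.20, adjusted p = 0.907). Its value in the mutant of litter 810 is given further on.

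Of the 3 chromosomal passenger genes 1 fell and 1 rose (all genes, 11.3% and 5.85%), with a median log2 fold change of 0.67. Incenp (ENSMUSG00000024660, chr19:9872296-9899551, minus strand), the scaffold that binds and activates Aurora B, had 55.2 and 91.5 in the mutants of litter 808 and 130.2 in the mutant of litter 810, against 259, 336 and 198 in controls. Every mutant was below every control. The log2 fold change between littermates was -1.85 (SE 0.31, adjusted p = 0.00611, and 3.18e-06 to 0.0735 over the alternatives), and over all 6 embryos it was -1.56.

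Birc5 (ENSMUSG00000017716, chr11:117849251-117855743, plus strand), which encodes Survivin, the subunit that reads the histone mark of the inner centromere, had 316 and 313 in the mutants of litter 808 and 155 in the mutant of litter 810, against 185, 175 and 148 in controls. It rose between littermates (0.89, SE 0.22, adjusted p = 0.0244, and 0.000127 to 0.140 over the alternatives), whereas the mutant of litter 810 lay among the controls. Cdca8, which encodes Borealin and is named here because of its values, had 363 and 323 in the mutants of litter 808 and 183 in that of litter 810, against 212, 201 and 232 in controls, and did not pass (0.67, SE 0.21, adjusted p = 0.0562).

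Among the 6 cohesin genes 2 fell and none rose, against 11.3% and 5.85% of all genes. Their median log2 fold change was -0.32, against -0.16 over all genes. The 2 that fell encode the alternative subunits of the cohesin ring's STAG arm. Stag2 (ENSMUSG00000025862, chrX:42149317-42277185, plus strand) had 177 and 285 in the mutants of litter 808 and 918 in the mutant of litter 810, against 1138, 1185 and 1133 in controls. Controls varied little, the mutant of litter 810 was just below them and the littermate mutants were far below. The log2 fold change between littermates was -2.35 (SE 0.23, adjusted p = 0.000746), and Stag2 passed under each of the 17 alternatives, with adjusted p values of 9.66e-20 to 0.0480.

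Stag1 (ENSMUSG00000037286, chr9:100597798-100959375, plus strand) had 14.5 and 24.6 in the mutants of litter 808 and 64.8 in the mutant of litter 810, against 63.9, 65.7 and 56.8 in controls. The mutant of litter 810 lay within the range of the controls, and the littermate mutants were below them (-1.66, SE 0.37, adjusted p = 0.0164, and 0.000780 to 0.0933 over the alternatives). Stag2 is X-linked, and the labels do not give the sex of the embryos. Xist, transcribed from the inactive X chromosome, had 2.18 and 124 in the mutants of litter 808 and 235 in that of litter 810, against 270.4, 414 and 164 in controls. The Y-linked Kdm5d had 37.4 and 23.6 in the mutants of litter 808 and 7.53 in that of litter 810, against 28.7, 15.6 and 17.7 in controls. The part of embryo sex in the value of Stag2 was not tested.

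The subunits that close the cohesin ring did not pass. Rad21, the cleavable subunit, had 132 and 166 in the mutants of litter 808 and 128 in that of litter 810, against 173, 248 and 142 in controls (-0.30, SE 0.29, adjusted p = 0.512). Smc3, one arm of the ring, had 141 and 193 in the mutants of litter 808 and 67.2 in that of litter 810, against 109, 147 and 125 in controls (0.39, SE 0.27, adjusted p = 0.355). The groups overlapped within litter 808 for both genes.

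Of the 8 condensin genes 1 fell and none rose (all genes, 11.3% and 5.85%), with a median log2 fold change of -0.46. Ncapd3 (ENSMUSG00000035024, chr9:27030175-27095315, plus strand), a subunit of the condensin that stays in the nucleus through interphase, had 21.8 and 24.3 in the mutants of litter 808 and 47.1 in the mutant of litter 810, against 61.9, 48.0 and 56.1 in controls. Every mutant was below every control, that of litter 810 by a small margin. The log2 fold change was -1.22 (SE 0.35, adjusted p = 0.0396, and 0.0115 to 0.266 over the alternatives).

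The core ATPases shared by both condensins did not pass. Smc4 had 332 and 291 in the mutants of litter 808 and 177 in that of litter 810, against 177, 220.2 and 172 in controls (0.72, SE 0.23, adjusted p = 0.0560). Smc2 had 141 and 85.6 in the mutants of litter 808 and 82.5 in that of litter 810, against 90.1, 101 and 78.9 in controls (0.29, SE 0.30, adjusted p = 0.552). Both littermate mutants were above the controls for Smc4 and only 1 of them for Smc2.

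Neither gene of the Smc5-Smc6 complex passed, and the median of their log2 fold changes was -0.38. Smc5 had 115 and 154 in the mutants of litter 808 and 125 in that of litter 810, against 230, 253 and 186 in controls, with every mutant below every control (-0.73, SE 0.25, adjusted p = 0.0771). Smc6, its partner, had 131 and 199 in the mutants of litter 808 and 77.4 in that of litter 810, against 172, 172 and 151 in controls (-0.03, SE 0.26, adjusted p = 0.952). Of the 2 genes that share only the name, Cenpj had 17.1 and 0.492 in the mutants of litter 808 and 7.06 in that of litter 810, against 16.7, 21.3 and 1.21 in controls, and Cenpv had 0.726 and 2.46 in the mutants of litter 808 and 3.29 in that of litter 810, against 4.15, 0.674 and 5.43 in controls. Cenpv lay at or near the limit of 3 reads in the shallowest library, with 2 reads.

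With the reads of every embryo thinned to 2962425, the depth of the shallowest, all 8 calls remained and Smc4 was added to those that rose. That setting called 1264 of all 12099 genes lower and 778 higher. Without the variance trend only Stag2 passed, and of all genes 251 were lower and 17 higher, against 1366 and 708 with it. The calls within litter 808 also rested on few embryos. Stag2 and Incenp remained called whichever embryo of litter 808 was left out, and each of the other 6 was lost without at least 1 of them. Without Rbpj-/- embryo 6 or 7 a single mutant of litter 808 was left. The median log2 fold change was then 0.0944 over members and -0.123 over all genes without embryo 6. Without embryo 7 these medians were 0.0349 and -0.144. Without the heterozygote there were 2 members lower and 1 higher, against 474 and 116 of all genes. Without wildtype control 3 there were 2 lower and 0 higher, against 406 and 75 of all genes. Without wildtype control 4 there were 3 lower and 0 higher, against 539 and 126 of all genes.

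The Rbpj-/- embryo of litter 810 was not like the mutants of litter 808. It was below all 3 controls in 23 members (44.2%, against 29.6% of all genes) and above all controls in 11 (21.2%, against 29.1%). The median difference of the members from the control mean was 0.03 and 0.09 in the mutants of litter 808 and -0.12 in the mutant of litter 810, in log2(value + 1), against -0.14, -0.12 and 0.02 over all genes tested. In the mutant of litter 810 the members thus lay lower than the median gene, and in the others higher. Blood markers were highest in this embryo, and its genotype, litter and library cannot be told apart from one another, because litter 810 gave no control.

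The litter coefficient of the same fit compares the mutant of litter 810 with the mean of the mutants of litter 808, and assumes that the lone embryo varies like the others. By this test, whose p-values hold only under that assumption, 2 members were lower (3.85%, against 0.636% of all genes) and 1 was higher (1.92%, against 1.83% of all genes). Cenpe had 159 in the mutant of litter 810 and 479 and 490.5 in the mutants of litter 808 (log2 difference -1.60, SE 0.27, adjusted p = 0.0236), and this value was also below those of all controls. Casc5 (now named Knl1), the scaffold that recruits the checkpoint kinase Bub1, is named because of its values, and had 11.9 in the mutant of litter 810 and 56.3 and 52.4 in the mutants of litter 808 (-2.10, SE 0.46, adjusted p = 0.0482), against 60.1, 83.3 and 57.2 in controls. Stag2 was higher in the mutant of litter 810 than in those of litter 808 (2.03, SE 0.31, adjusted p = 0.0153).

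The genes next in size did not pass. The differences were -1.28 for Smc3 (SE 0.36, adjusted p = 0.0863), -1.05 for Smc6 (SE 0.35, adjusted p = 0.126), -1.81 for Cenpw (SE 0.55, adjusted p = 0.102) and -2.20 for Cenpc1 (SE 0.87, adjusted p = 0.179). Smc5 differed little between the litters (-0.09, SE 0.34, adjusted p = 0.900). Without the variance trend none of the members passed this test, and 0 of all genes did.

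**Figure D3:**
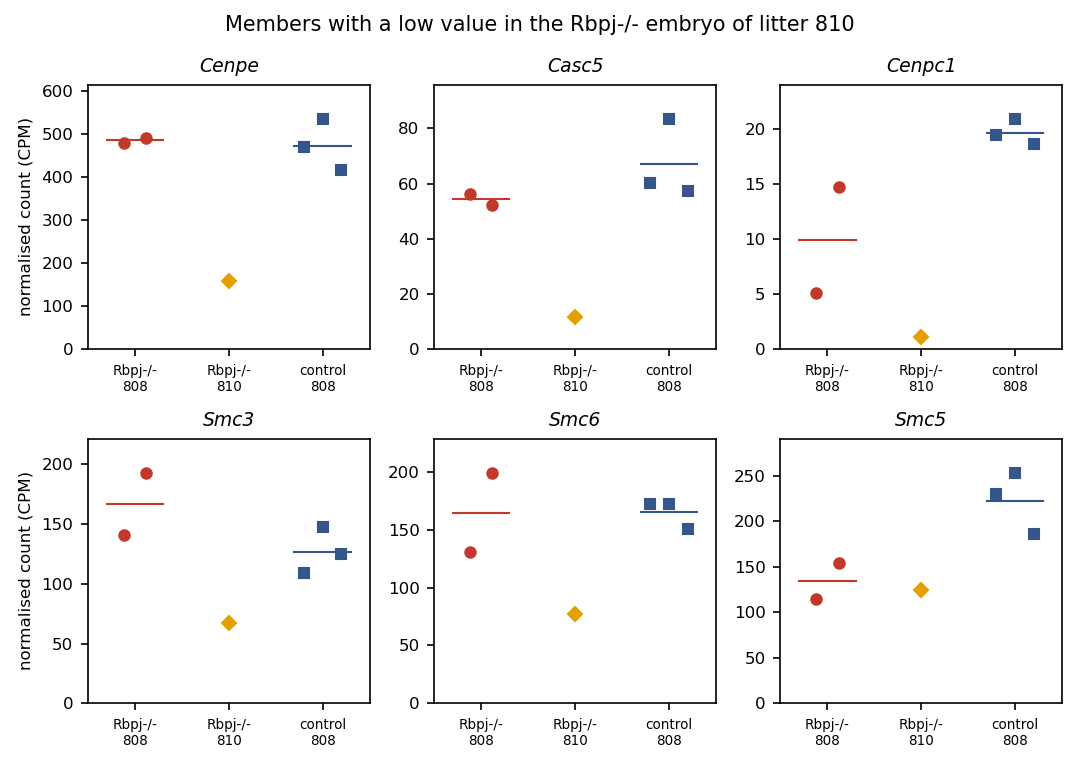
Normalised counts (CPM, linear axis from 0) of 6 genes that were low in the Rbpj-/- embryo of litter 810, with points for single embryos and lines for the means of litter 808. Cenpe stands at 159 and Casc5 at 11.9 in that embryo, below all other embryos, whereas Smc5 is low in the mutants of both litters.

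The sizes of these changes moved with transcript length over the whole table. Among the members, the Spearman coefficient between the log2 fold change of littermates and the longest annotated transcript was -0.45 (n = 52), and over all genes it was -0.44 (n = 12010). These points share the same 5 libraries. With the median annotated transcript it was -0.14 over members and -0.27 over all genes. For single embryos the coefficients over members were -0.35 and -0.48 in the mutants of litter 808 and -0.43 in that of litter 810, against -0.14, 0.07 and -0.06 in controls. Over all genes they were -0.40, -0.38 and -0.15 in the mutants, against -0.08, 0.10 and -0.01 in controls.

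Of the members, 9 were in the shortest tercile of all genes tested (transcripts up to 2323 bases), 22 in the middle tercile (up to 4012 bases) and 21 in the longest. No member of the shortest tercile fell and 2 rose, 2 of the middle tercile fell and 1 rose, and 3 of the longest tercile fell and none rose. Of all genes, 1.25%, 11.1% and 21.6% fell and 12.5%, 3.77% and 1.37% rose in the same terciles, from shortest to longest, the same gradient. The median log2 fold change of the members was 1.01, 0.02 and -0.35 from the shortest to the longest tercile, against 0.47, -0.30 and -0.80 for all genes, so that the medians of the members were above those of all genes in each tercile. Cenpm and Spc24, which rose, have longest transcripts of 1202 and 1696 bases, and Stag1 and Stag2, which fell, of 6186 and 6171 bases. Cenpe, with 7910 bases, stayed near 0.

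**Figure D4:**
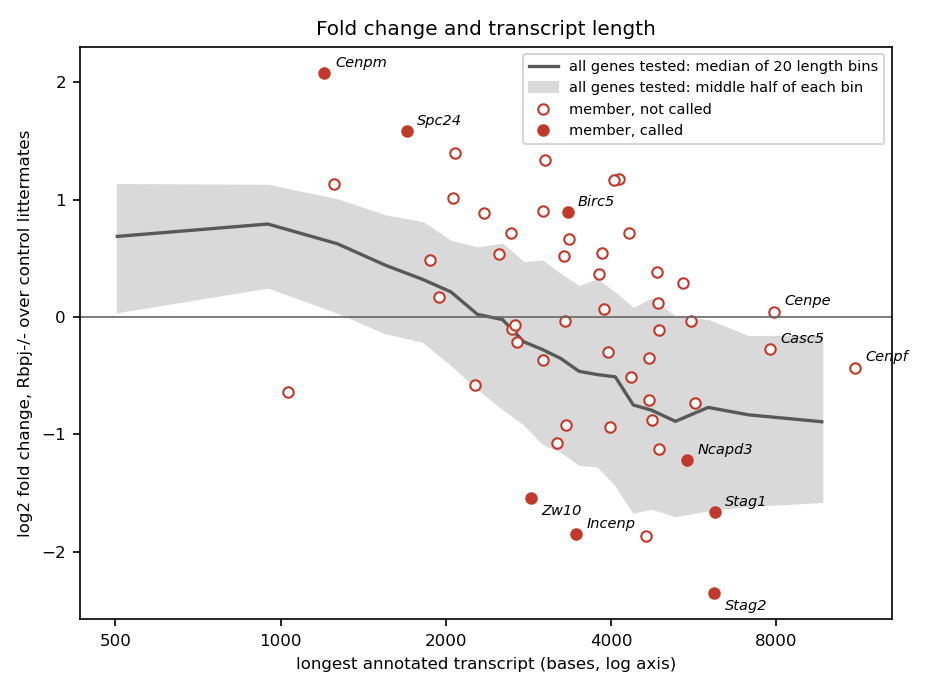
Log2 fold change of Rbpj-/- embryos over control littermates against the longest annotated transcript (log axis). The grey line and band are the median and the interquartile range of all genes tested in 20 bins of length, open circles are members and filled circles the 8 called members. Cenpm (2.08) lies at the short end, and Stag2 (-2.35) far below the band at the long end.

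After a loess trend with transcript length was removed from each embryo, 3 members fell (5.77%, against 6.63% of all genes) and 5 rose (9.62%, against 2.84% of all genes). The calls of Stag2 (-1.74, adjusted p = 0.00309), Incenp (-1.66, adjusted p = 0.00947), Zw10 (-1.53, adjusted p = 0.0479) and Birc5 (1.05, adjusted p = 0.0181) were shared with the uncorrected fit. Stag1, Ncapd3, Cenpm and Spc24 no longer passed, with adjusted p values of 0.0933, 0.266, 0.179 and 0.0725. Cdca8, Cenpe, Cenpw and Smc4 passed as higher in Rbpj-/- embryos only after this step, with log2 fold changes of 0.83, 0.68, 1.56 and 1.14. With the median in place of the longest transcript, Stag2, Incenp and Stag1 (adjusted p = 0.0188) passed as lower, but Zw10 (adjusted p = 0.0528) and Ncapd3 did not. Birc5, Spc24 and Cenpw then passed as higher, and Cdca8, Cenpe, Smc4 and Cenpm did not. Of all 12010 genes in that fit, 1101 passed as lower and 365 as higher. Removing the trend with the longest transcript also turned the median of the corona (0.19), of cohesin (0.09) and of the Smc5-Smc6 genes (0.21) above 0, whereas the medians of the CCAN, KMN, Ska and passenger groups stayed above 0 and that of condensin below 0 under each of the 5 changes of scaling tried. The cause of the relation with length was not tested.

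The wider pathway was examined in a list of 41 symbols, aliases included, of checkpoint genes, cohesin regulators and CENP-A loading factors, of which 39 were tested. Between littermates 8 fell (20.5%, against 11.3% of all genes) and 3 rose (7.69%, against 5.85%), with a median log2 fold change of -0.35, against -0.16 over all genes. After removal of the length trend 5 fell (12.8%, against 6.63%) and 2 rose (5.13%, against 2.84%). Espl1, which encodes separase, the protease that cleaves Rad21 at anaphase, had 33.4 and 27.8 in the mutants of litter 808 and 189 in that of litter 810, against 256, 256 and 228 in controls (-2.98, SE 0.25, adjusted p = 0.000506). Bub1b, which encodes the checkpoint protein BubR1, had 40.3 and 71.8 in the mutants of litter 808 and 129.8 in that of litter 810, against 157, 231 and 176 in controls (-1.77, SE 0.32, adjusted p = 0.00751). Pds5a, a regulator that binds the cohesin ring, had 12.3 and 11.6 in the mutants of litter 808 and 19.7 in that of litter 810, against 48.0, 51.1 and 62.0 in controls (-2.07, SE 0.40, adjusted p = 0.0107). For all 3 genes every mutant was below every control, as for 12.8% of all genes tested. Because the 3 were picked by their littermate p, this order is no further support.

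Mad2l1, which encodes the checkpoint effector Mad2, had 184 and 237 in the mutants of litter 808 and 146 in that of litter 810, against 98.8, 96.5 and 76.7 in controls (1.20, SE 0.26, adjusted p = 0.0150). Its longest transcript has 7557 bases, and over all genes the median fold change at such lengths was below 0. Removal of the length trend therefore raises its fold change (1.84, adjusted p = 0.00386) and is no further support. Stra13 and Apitd1, which encode the CCAN-associated histone-fold proteins CENP-X and CENP-S, rose together. Stra13 had 142 and 103 in the mutants of litter 808 and 68.4 in that of litter 810, against 52.5, 52.8 and 39.7 in controls (1.31, SE 0.31, adjusted p = 0.0204), and Apitd1 had 70.4 and 65.4 in the mutants of litter 808 and 23.3 in that of litter 810, against 28.3, 22.5 and 27.6 in controls (1.35, SE 0.36, adjusted p = 0.0329). Both have short transcripts, whose fold changes are lowered by removal of the length trend, and neither passed after it (adjusted p = 0.409 and 0.394).

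The kit does not keep strand, and the exons of 12 members overlap those of another gene in the table, as for Cenpk with Ppwd1, Cenpt with Tsnaxip1 and Cenpu with Primpol, so that their reads may include those of the neighbour. None of the 8 genes called between littermates is among them.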

How the data were processed

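RNA of 6 single morulae was amplified by the authors (SMART-Seq Ultra Low Input kit), an oligo-dT method that does not keep strand. The authors mapped reads to the GRCm38 transcriptome with RSEM and scaled the counts by TMM in edgeR. The submitters' processing notes name CASAVA 1.8.2, cutadapt 1.3 and RSEM 1.2.3, another release than that of the paper's methods. The signal values deposited by the authors are these normalised counts, as CPM. The filter behind the table of 12125 genes, of which 113 have no name, is not stated in the sources used here. All values (100%) were within 0.01 of a whole number of reads, and these reads were recovered. Limits of 3 reads cover counting error only.

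The main test was limma 3.58.1 (R 4.3.3) on log2(value + 1), two-sided, with a variance trend and empirical Bayes moderation. P-values were adjusted by Benjamini-Hochberg across the 12099 genes that exceeded 1 in 3 or more embryos, with a threshold of 0.05. Fold changes are on this scale and understate the change of low genes. The design held genotype only, or genotype and litter. The authors tested with edgeR and reported differentially expressed genes at an adjusted p under 0.05, most of them lower in mutants. On the recovered reads, the quasi-likelihood test of edgeR 4.0.16 and the Wald test of DESeq2 1.42.0 served as alternatives. Over all 6 embryos, this quasi-likelihood test called 0 of the 12099 genes lower and 0 higher. The cause of the difference from the paper was not tested. Single embryos are the replicates. Coordinates, exons and transcript lengths came from the GENCODE annotation of GRCm38. The length trend was removed by loess (span 0.5) in each embryo over 12010 genes, keeping the level of each embryo. Only the limma fits, with and without litter, were tried on simulated counts, which held no litter effect and no trend with length.

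The members and lists were chosen with earlier results of these data known. Genes described by value were 10 chosen by role, the 2 of each role with the smallest littermate p, up to 6 lower and 6 higher members called with the largest fold change, and 3 lower and 3 higher genes of the wider pathway with the smallest p. The values of Xist, Kdm5d and Uty and the medians of the roles under other scalings were added after the data were seen. The alternatives changed 1 choice at a time: the pseudocount (0.1 or 5), the filter (none, or a mean of 10 or more), the variance trend (left out), the scaling (median of ratios or quantile), reads thinned to 2962425, array weights, both length trends, both count tests and leaving out each embryo.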

Additional observations from a re-analysis of the deposited data

Results flagged for a closer look

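By the litter term of the limma fit, 3 members passed between the mutants of the 2 litters. This term sets a single embryo against the others and assumes that it varies like them, and without the variance trend none of the members, and 0 of all 12099 genes, passed. Casc5 was lower in the Rbpj-/- embryo of litter 810 than in those of litter 808 (log2 difference -2.10, adjusted p = 0.0482, and 0.0194 to 0.156 over the alternatives), Cenpe differed by -1.60 (adjusted p = 0.0236, and 0.0135 to 0.183) and Stag2 by 2.03 (adjusted p = 0.0153, and 0.00733 to 0.172). Litter 810 held 1 embryo and no control, so that litter, library and embryo cannot be told apart. Blood markers summed to 7305 in this embryo, against 210 and 41.5 in the mutants of litter 808 and 1110, 5.39 and 5446 in controls. The part of blood RNA in these differences was not tested.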

How the results depend on the processing

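Over all 6 embryos, the 0 members called lower and 0 higher became 1 lower with DESeq2, 5 lower and 1 higher with array weights, and 0 to 5 lower and 0 to 3 higher when 1 embryo was left out. The 5 and 3 came without the Rbpj-/- embryo of litter 810, which leaves the littermates. Over all 12099 genes, that fit called 1357 lower and 721 higher. DESeq2 called 222 of all genes lower and 134 higher, and array weights 1164 and 400. The median member log2 fold change of -0.13 became 0.0544 with quantile normalisation, 0.11 with the longest-transcript trend removed, 0.0505 with array weights and -0.118 to 0.0163 without 1 embryo. Between littermates, the 5 members that fell became 1 without the variance trend, 3 with quantile normalisation, 3 with either length trend removed and 2 to 7 without 1 embryo. The 3 members that rose became 5 with a mean value of at least 10, 0 without the variance trend, 5 with median of ratios scaling, 5 with the longest-transcript trend removed, 8 with DESeq2 and 0 or 1 without 1 control. Of all genes, the 708 that rose became 864 of 7812 with a mean value of at least 10, and 17 without the variance trend. They became 843 with median of ratios scaling, 341 with the longest-transcript trend removed, 1269 with DESeq2 and 75 to 126 without 1 control. The median of -0.03 became 0.0418 with median of ratios scaling, 0.0463 with quantile normalisation, 0.0092 with thinned reads, 0.28 with the longest-transcript trend removed, 0.0581 with DESeq2 and 0.0027 to 0.0944 without 1 embryo. Quantile normalisation alone moved the median of all genes to 0.10, against -0.16. For single genes, only the members chosen for description by the rule above were tallied, in both comparisons, not all 52. Of their alternative values, 799 kept the direction and the side of the threshold. Another 25 moved past it, 40 fell short of it and 34 changed sign. None of these 34 passed the test in either form, and none was of a gene called between littermates. Over all 6 embryos, log2 fold changes of the other sign were 0.0530 (Cenpe), 0.3413 (Smc3), 0.1505 (Cenpf) and 0.0707 (Smc6) with the longest-transcript trend removed, -0.0030 (Cenpa) with the median-transcript trend removed, 0.2665 (Cenpv) with thinned reads, and for Smc3 also 0.0151 with median of ratios scaling, 0.0737 with edgeR, 0.1374 with DESeq2 and 0.3435 with array weights. Without 1 embryo they spanned -0.0848 to 0.5467 (Ndc80), -0.7645 to 0.0447 (Cenpe), -0.3674 to 0.3858 (Smc3), -0.0897 to 0.2921 (Smc2), -0.9644 to 0.0155 (Cenpv) and -1.7241 to 0.3378 (Cenpj). Between littermates they were 0.0302 (Rad21), 0.1921 (Cenpf) and 0.5546 (Smc6) with the longest-transcript trend removed, for Cenpe -0.1373 with quantile normalisation and -0.2287 with the median-transcript trend removed, and for Smc6 also 0.0454 with median of ratios scaling or thinned reads, 0.0008 with edgeR and 0.0737 with DESeq2. Without 1 embryo they spanned -0.0452 to 0.1366 (Cenpe), -0.0641 to 0.6483 (Smc2), -1.1768 to 0.3118 (Cenpf), -0.3326 to 0.2716 (Smc6) and -2.6779 to 0.9198 (Cenpj). Apart from the fewer embryos of a left-out fit, the causes were not tested. No paired analysis was possible because the labels pair no mutant with a control beyond the shared litter. Depth limits the genes with few reads in the shallowest mutant, such as Cenpv with 2 and Cenpc1 with 14 reads.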
